A study of Mus musculus with 9 samples.

Results

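The values described here belong to 34 imprinted genes of the mouse, measured in poly(A) RNA of Panc02 cells, a line grown from a mouse pancreatic ductal tumour. They were chosen by name from the 49671 genes of the deposited count table and sorted by imprinted domain. The study set out to learn what VPAC2, a receptor for vasoactive intestinal peptide encoded by Vipr2, does in pancreatic cancer growth. It holds 3 groups of 3 libraries, all from untreated cells in culture. The parental group is the unedited line, labelled wild type. KO_1E7 is a single clone labelled VPAC2 knockout, made with CRISPR-Cas9. CRISPR_1G2 is a single clone labelled CRISPR-wild type, although the series' design text counts both clones among the edited knockout cells, and the genotype labels were followed here. Each edited group is 1 clone, so the edit and the clone cannot be told apart.

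An imprinted gene is transcribed mainly from the copy inherited from 1 parent, because DNA methylation laid down in egg or sperm marks a control region near it. Such genes lie in domains that share a control region, and many domains pair growth-promoting genes expressed from the father's copy with growth-limiting genes expressed from the mother's copy. In the Igf2-H19 domain, the growth factor gene Igf2 and the noncoding RNA H19 compete for the same enhancers. In the Kcnq1ot1 domain, the noncoding RNA Kcnq1ot1 keeps its neighbours silent on the paternal copy. RNA counts do not separate the parental copies, so the values below are total levels and say nothing of the allele they came from.

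Of the 34 genes, 12 had enough reads to be tested (35.3%, against 31.7% of all genes in the table). Levels are given as CPM, counts scaled to a common sequencing depth with TMM-adjusted library sizes. Tests are edgeR's quasi-likelihood F-test with Benjamini-Hochberg adjustment over the 15766 genes tested, and a gene is called when its adjusted p is below 0.05. No label states that libraries of a group were grown separately, and the p-values therefore describe the scatter among these libraries, possibly a technical one. A difference in RNA level can also reflect a different share of cells expressing a gene, which bulk RNA cannot separate.

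Several facts of the whole series touch these values. Gene counts ran from 27898705 to 51878289 per library. Vipr2, the targeted gene, was rare everywhere, with 6, 3 and 12 counts in parental 1 to 3, 1, 2 and 1 in KO_1E7 1 to 3, and 1, 13 and 12 in CRISPR_1G2 1 to 3. Parental 3 and CRISPR_1G2 3 stood apart from the other libraries: Mdm2, a gene induced by p53, was at 1857 and 3910 CPM there and between 646 and 1173 CPM in the other 7. In parental 3 a single transcript, CT010467.1, took 15.3% of all counts and at most 1.04% elsewhere. KO_1E7 2 stood between the other libraries of its clone and the parental line for several imprinted genes, and results that turn on it are also given without it. KO_1E7 2 and CRISPR_1G2 2 each carry a date in their column header that no other library has, so the date and the position of KO_1E7 2 cannot be told apart. All 10 duct epithelial markers were found, with a summed level of 1360 to 2052 CPM in parental, 1287 to 2108 in KO_1E7 and 896 to 2113 in CRISPR_1G2 libraries, and Cftr alone stayed under 10 counts in every library. Within this sum, Krt7 was at 17.7 to 30.5, 4.01 to 5.31 and 13.7 to 67.2 CPM in the same order. Epcam was at 3.53 to 7.04, 0.746 to 3.43 and 4.95 to 16.6 CPM. For Krt8, Krt18, Krt19 and Cdh1 the KO_1E7 range overlapped those of both other groups. Islet markers reached at most 0.0726 CPM in sum, erythroid markers 0.315 and immune markers 13.8. Fibroblast markers summed to 73.7 to 87.8 CPM in parental, 70.9 to 149.6 in KO_1E7 and 43.9 to 81.2 in CRISPR_1G2 libraries. Endothelial markers summed to 3.75 to 4.48, 1.67 to 3.34 and 2.94 to 4.09 CPM in the same order. The acinar sum was 7.37 to 13.3 CPM in KO_1E7 against 1.04 to 2.68 CPM elsewhere, and of its 6 markers found, 5 stayed under 10 counts in every library, with Ptf1a and Prss1 at 0. The part of these marker levels in the results below was not tested.

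Levels of the members fell into a small expressed set and a large set near zero. Compared per kilobase of exon in the parental line, the order from the top was Igf2 with a mean of 52.3 CPM per kb, Gnas with 33.6, Igf2r with 31.7, Phlda2 with 20.3 and Tssc4 with 14.7. In the parental line Gnas and Igf2r per kb differed by less than the spread between libraries of Gnas. In KO_1E7 the order changed: Gnas led with 30.6 CPM per kb, followed by Igf2r with 27.3, Tssc4 with 11.2, Phlda2 with 6.78 and Igf2 with 5.19. The Igf2 mean was carried by KO_1E7 2: over KO_1E7 1 and 3 alone Igf2 was at 0.729 CPM per kb, below Impact with 3.13, Zrsr1 with 1.71 and Airn and Nnat with 1.36 each. Peg3, a zinc finger gene, and Mest, a hydrolase-like gene, were close to the detection limit, at 0.0298 and 0.240 CPM per kb in the parental line.

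**Figure D1:**
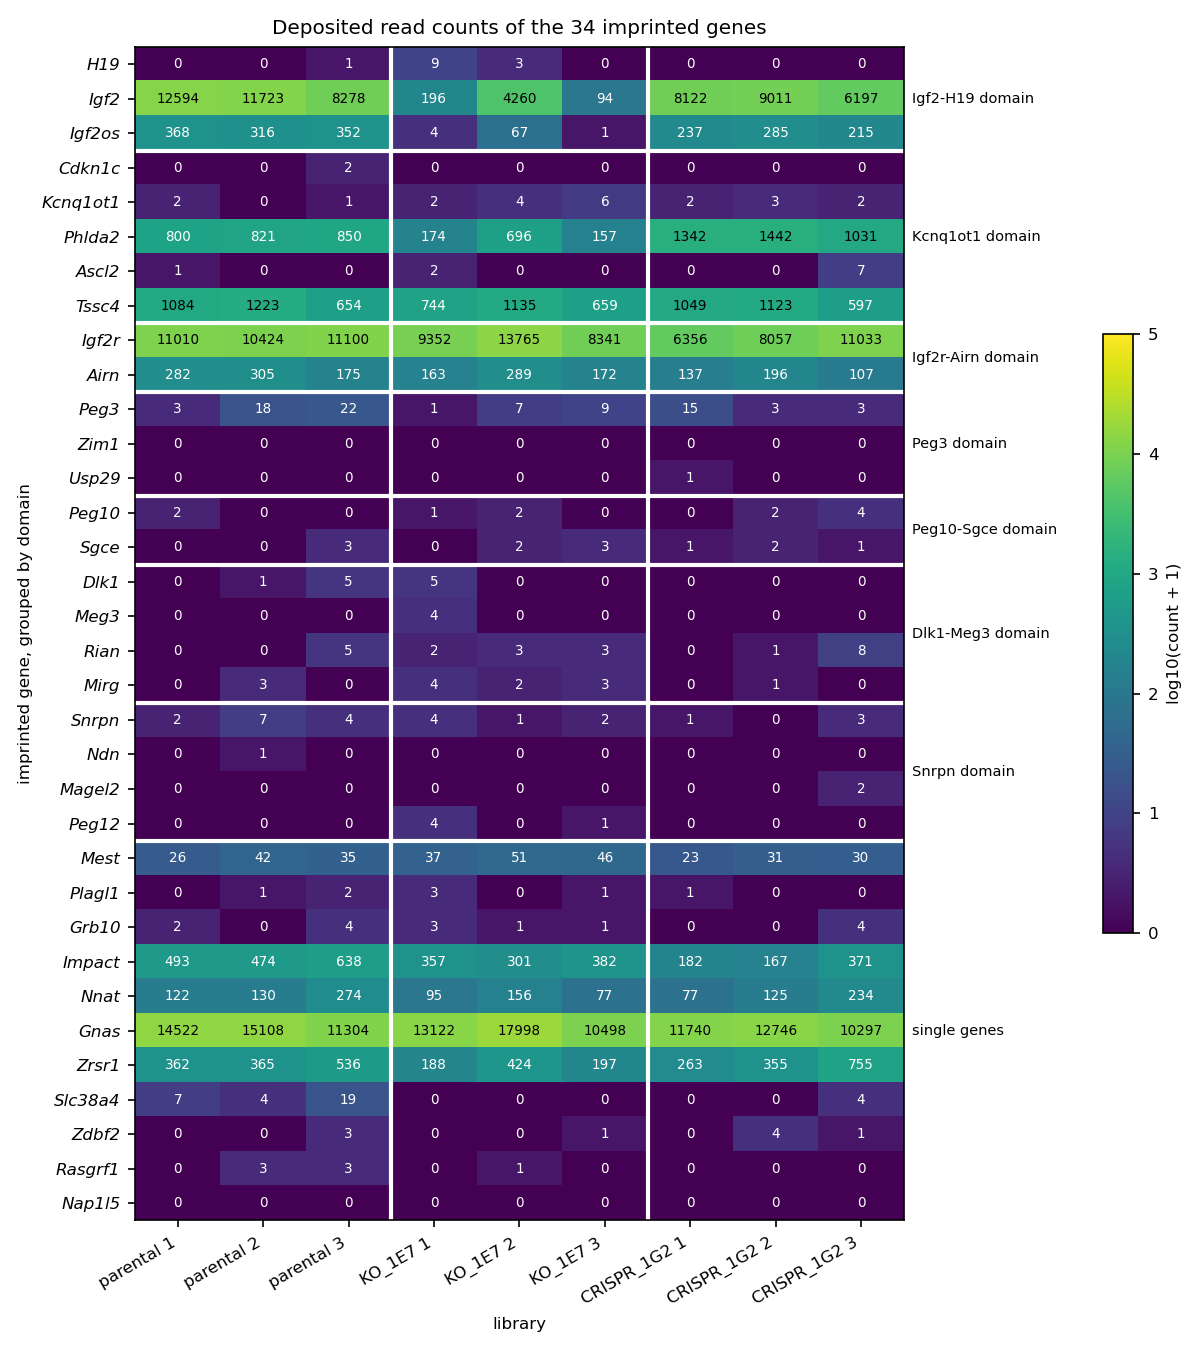
Deposited read counts of all 34 imprinted genes (rows, grouped by domain) in the 9 libraries (columns), with each count printed in its cell and the colour giving log10(count + 1). The Dlk1-Meg3, Snrpn and Peg10-Sgce domains hold single-digit counts in every library, while Igf2 reaches 12594 counts in parental 1.

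No member of the Dlk1-Meg3, Snrpn or Peg10-Sgce domains passed the filter on low counts. In the Dlk1-Meg3 domain, which holds the Notch-like membrane protein gene Dlk1 and the noncoding RNAs Meg3, Rian and Mirg, the highest count in any library was 8. The Snrpn domain, known for its role in Prader-Willi syndrome and holding Snrpn, Ndn, Magel2 and Peg12, reached at most 7 counts, and the Peg10-Sgce pair at most 4. Of the 22 untested members, 21 stayed under 10 counts in every library, and Zim1 and Nap1l5 had 0 counts in all 9. Usp29, beside Peg3, had 1 count in all, and the single genes Plagl1, Grb10, Zdbf2 and Rasgrf1 had at most 4 in a library. A count of 0 allows up to 3 counts, or 0.0247 CPM over the pooled KO_1E7 libraries and 0.0326 CPM over the pooled CRISPR_1G2 libraries. This floor and the intervals below cover counting error only. The noncoding RNAs of these domains were read from poly(A)-selected RNA, which captures transcripts without a poly(A) tail poorly.

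Slc38a4, a placental amino acid transporter gene expressed from the father's copy, was the untested member with the most reads. It had 7, 4 and 19 counts in the parental libraries, 0, 0 and 0 in KO_1E7 and 0, 0 and 4 in CRISPR_1G2. Pooled over libraries, its parental level was 11.2 times the limit of 3 counts over KO_1E7, a point estimate that leaves out the spread between parental libraries. The pooled ratio of parental to CRISPR_1G2 was 6.34 (95% interval 2.24 to 24.8, counting error only). Neither tool called Slc38a4 in CRISPR_1G2 against parental cells. DESeq2 gave a log2 fold change of -2.70 ± 1.66 (adjusted p = 0.858), and edgeR without its filter -2.59 ± 1.14 (adjusted p = 0.854). DESeq2 called Slc38a4 lower in KO_1E7 than in parental cells (log2 fold change -5.87 ± 1.90 SE, adjusted p = 0.0239), whereas edgeR without its filter gave -6.30 ± 1.60 and an adjusted p of 0.0717. Most parental reads came from parental 3, one of the libraries that stood apart.

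Igf2, the insulin-like growth factor II gene and the most abundant member per kilobase in the parental line, lies on the minus strand of chromosome 7 (ENSMUSG00000048583, 142650766 to 142666816 on GRCm38). Its level was 344, 324 and 230.1 CPM in parental 1, 2 and 3. In KO_1E7 1, 2 and 3 it was 5.54, 80.7 and 2.81 CPM. In CRISPR_1G2 1, 2 and 3 it was 295, 284 and 189 CPM. Every KO_1E7 library lay below every parental and CRISPR_1G2 library, and KO_1E7 2 lay far above the other libraries of its clone. Igf2 was also lower in KO_1E7 1 than in parental 1, which share a header date. Among the libraries numbered 3, which share the header word NSG, that of KO_1E7 was the lowest. These comparisons hold 1 library per group, and the part of date or word in the Igf2 levels was not tested. Group means were 299.3 ± 60.8 CPM (SD, n = 3) in parental, 29.7 ± 44.2 in KO_1E7 and 256 ± 58.2 in CRISPR_1G2 libraries.

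With all 9 libraries and no term besides group, edgeR did not call Igf2: the log2 fold change was -3.33 ± 1.08 (SE) in KO_1E7 against parental (adjusted p = 0.107) and -3.10 ± 1.07 against CRISPR_1G2 (adjusted p = 0.0929). KO_1E7 2 was 14.6-fold above KO_1E7 1 and 28.8-fold above KO_1E7 3, and it sat 25.9% of the way from their mean to the parental mean. Without KO_1E7 2, Igf2 was called lower in both contrasts, at -6.16 (adjusted p = 0.000984) and -5.94 (adjusted p = 0.000487). KO_1E7 2 had the highest Igf2 level of its clone. Leaving it out therefore enlarges the difference by construction, and these calls are no added evidence. With a term for the header word NSG, Igf2 was also called, at -3.71 (adjusted p = 0.0429) and -3.47 (adjusted p = 0.0367). DESeq2 left the adjusted p of Igf2 undefined. CRISPR_1G2 and parental levels overlapped (log2 fold change -0.23 ± 0.98, adjusted p = 0.987).

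Igf2os is an antisense noncoding transcript on the plus strand (ENSMUSG00000086266, chromosome 7, 142659693 to 142670356) whose span overlaps that of Igf2. Its level was 10.05, 8.72 and 9.79 CPM in the parental libraries, 0.113, 1.27 and 0.0299 CPM in KO_1E7 1, 2 and 3, and 8.61, 8.98 and 6.56 CPM in CRISPR_1G2. The KO_1E7 libraries held 4, 67 and 1 counts, all below the lowest count elsewhere, 215. Igf2os was called lower in KO_1E7 than in parental cells (edgeR log2 fold change -4.24 ± 0.90 SE, adjusted p = 0.0351) and than in CRISPR_1G2 (-3.996 ± 0.89, adjusted p = 0.0231). It did not differ detectably between CRISPR_1G2 and parental cells (-0.24 ± 0.77, adjusted p = 0.986).

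Both calls of Igf2os were lost in some single omissions and held in others. The call against parental cells was lost without parental 1 (adjusted p = 0.0962), parental 2 (0.0658), parental 3 (0.0666), KO_1E7 1 (0.124), KO_1E7 3 (0.0982), CRISPR_1G2 1 (0.0623) or CRISPR_1G2 2 (0.0641). The call against CRISPR_1G2 was lost without KO_1E7 1 (adjusted p = 0.0835), KO_1E7 3 (0.0590), CRISPR_1G2 1 (0.0566) or CRISPR_1G2 2 (0.0589). The estimate lay between -4.29 and -3.47 in the fits that lost the call. Without KO_1E7 2 both calls held with larger estimates, at -6.97 against parental (adjusted p = 0.000842) and -6.73 against CRISPR_1G2 (adjusted p = 0.000373). That library was the highest of its clone for Igf2os, so the larger estimates follow from its omission. The library kit does not mark strand, so reads from Igf2 and Igf2os cannot be told apart where the genes overlap, although their annotated exons share only 98 bases (1.84% of the exons of Igf2os). Counts of Igf2os were 2.70% to 4.25% of those of Igf2 in the parental and CRISPR_1G2 libraries and 1.06% to 2.04% in KO_1E7.

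H19, the noncoding RNA that shares enhancers with Igf2, was near zero in every library. It had 0, 0 and 1 counts in parental, 9, 3 and 0 in KO_1E7 and 0, 0 and 0 in CRISPR_1G2 libraries. The pooled ratio of parental to KO_1E7 was 0.0932 (95% interval 0.00218 to 0.630), a difference carried by KO_1E7 1 and too sparse for the test.

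**Figure D2:**
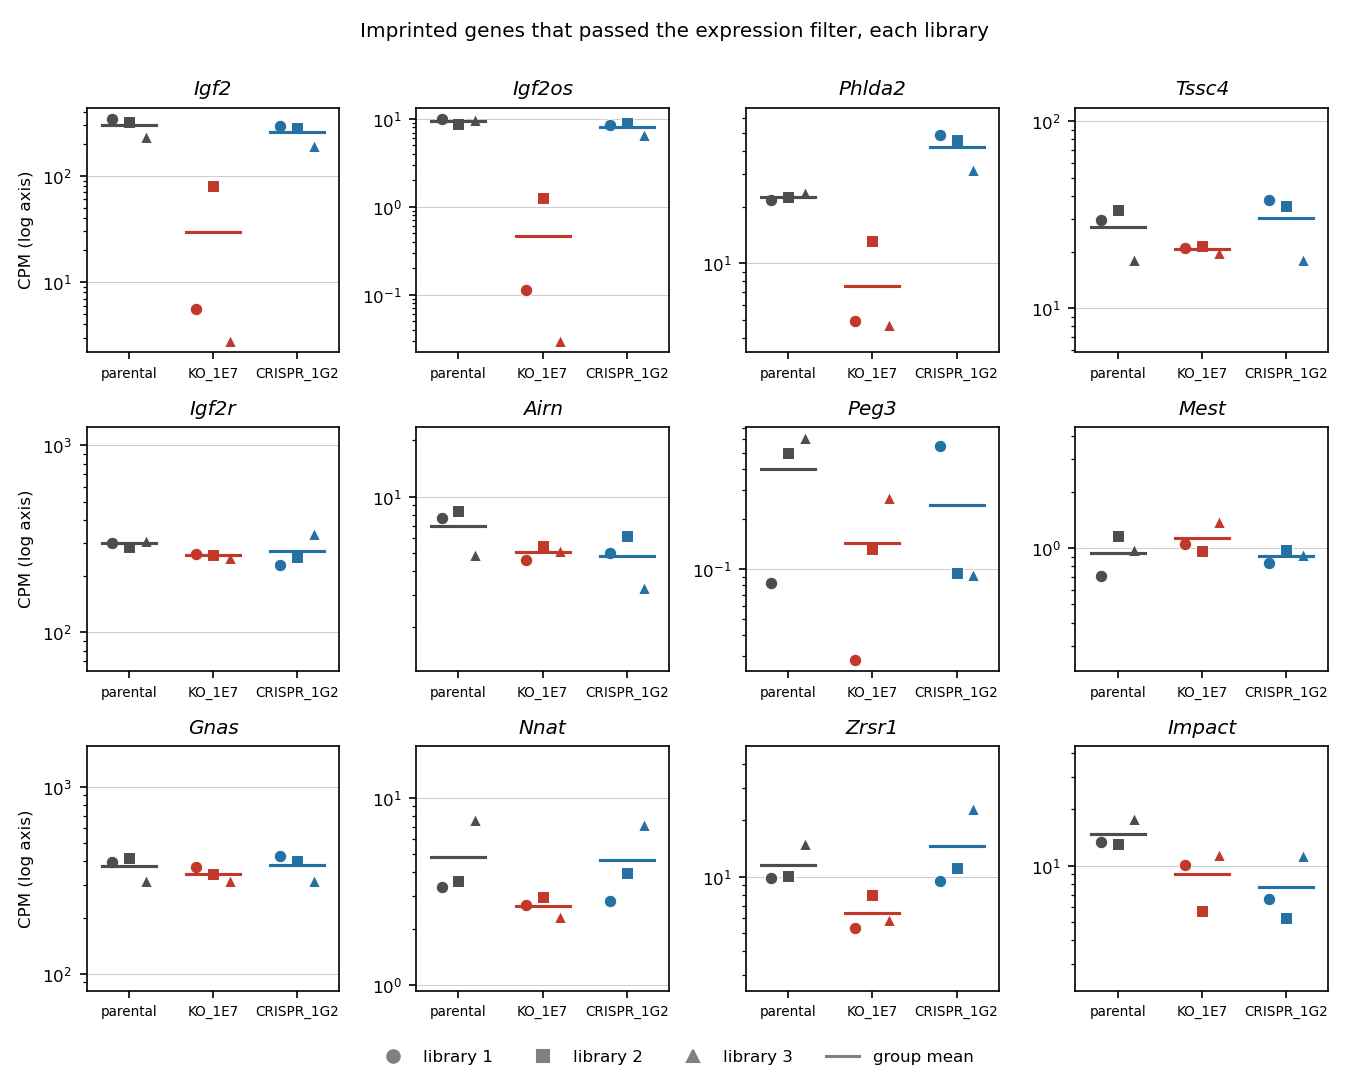
Level of each of the 12 tested imprinted genes in CPM on a log axis, with the 3 groups side by side, marker shapes for libraries 1, 2 and 3 and lines for group means. Igf2, Igf2os and Phlda2 are lower in all 3 KO_1E7 libraries than in any other library, and KO_1E7 2 is the highest of its group for each.

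Because Igf2 can start from several promoters, the 250 bases before its annotated starts were read from RefSeq (GRCm38.p6), where 28 of the 34 members had an entry and Igf2 had 4. Igf2 was picked for display after its values were seen, and the windows shown are those outside its annotated exons. They are given 5' to 3' on the minus strand with each CG dinucleotide, the target of DNA methylation, in capitals.
Igf2 upstream start, chr7:142666817-142667066: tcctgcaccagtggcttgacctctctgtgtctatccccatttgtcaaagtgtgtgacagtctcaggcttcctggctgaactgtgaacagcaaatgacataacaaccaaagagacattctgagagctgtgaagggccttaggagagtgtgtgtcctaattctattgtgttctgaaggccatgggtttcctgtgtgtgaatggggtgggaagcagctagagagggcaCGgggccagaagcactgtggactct
Igf2 downstream start, chr7:142657497-142657746: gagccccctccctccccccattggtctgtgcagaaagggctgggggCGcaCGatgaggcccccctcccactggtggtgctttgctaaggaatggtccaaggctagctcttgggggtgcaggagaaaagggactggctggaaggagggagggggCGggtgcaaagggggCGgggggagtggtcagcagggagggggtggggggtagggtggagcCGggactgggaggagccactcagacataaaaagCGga
The upstream window holds 1 CG and the downstream window 6, where the median over 32851 mouse promoters is 6. The other Igf2 windows, which overlap its exons and are not shown, hold 10 and 22 CG, more than 62.2% and 85.2% of promoters. The hexamer TGCCGC, recognised by the imprint-protecting zinc finger protein ZFP57 when methylated, was sought on both strands. It is in neither window and in 8.68% of all promoters, and of 18 promoters of 10 tested members, 2 hold it, both of Mest. Those Mest windows overlap almost in full, so they are not separate cases, and 1 of the 10 genes holds the hexamer. The Phlda2 window, which also overlaps its own exon, holds 21 CG, more than 83.7% of promoters, and no copy of the hexamer.

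Phlda2, a pleckstrin homology domain gene that limits placental growth and is expressed from the mother's copy, sits in the Kcnq1ot1 domain (ENSMUSG00000010760, chromosome 7, minus strand, 143501545 to 143503150). Its level was 21.9, 22.7 and 23.6 CPM in parental, 4.92, 13.2 and 4.69 CPM in KO_1E7 and 48.7, 45.5 and 31.5 CPM in CRISPR_1G2 libraries 1 to 3. The 3 groups did not overlap: KO_1E7 was lowest and CRISPR_1G2 highest. Phlda2 was called lower in KO_1E7 than in CRISPR_1G2 (edgeR log2 fold change -2.46 ± 0.40 SE, adjusted p = 0.00748). This call held in all 18 alternative analyses, with adjusted p from 6.57e-08 to 0.0395.

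Against parental cells, Phlda2 in KO_1E7 had a log2 fold change of -1.57 ± 0.39 and missed the threshold (edgeR, adjusted p = 0.0519). It passed without KO_1E7 2 (adjusted p = 0.00354), which sat 46.8% of the way from KO_1E7 1 and 3 to the parental mean, and without CRISPR_1G2 3 (0.0340). KO_1E7 2 was the highest of its clone for Phlda2, so leaving it out enlarges the difference by construction. DESeq2 called Phlda2 lower too (-1.55, adjusted p = 0.00254), as did edgeR with the NSG term (adjusted p = 0.0216). CRISPR_1G2 exceeded parental cells by 0.88 ± 0.38 on the log2 scale, which was not called (edgeR, adjusted p = 0.637). Per kilobase, Igf2 was 1.91 to 3.08 times as high as Phlda2 in parental libraries and 1.177 to 1.224 times as high in CRISPR_1G2. In KO_1E7 1, 2 and 3 that ratio was 0.221, 1.20 and 0.117.

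Of the other members of the Kcnq1ot1 domain, Tssc4 alone had enough reads to be tested. Tssc4, a gene of the same domain linked to spliceosome assembly, was at 29.6, 33.8 and 18.2 CPM in parental, 21.0, 21.5 and 19.7 CPM in KO_1E7 and 38.1, 35.4 and 18.2 CPM in CRISPR_1G2 libraries. The groups overlapped, since parental 3 and CRISPR_1G2 3 were the lowest of all 9. Without those libraries Tssc4 was called lower in KO_1E7 than in parental cells (edgeR log2 fold change -0.61, adjusted p = 0.00657) and than in CRISPR_1G2 (-0.81, adjusted p = 0.00137). Leaving out the lowest library of each comparison group, while KO_1E7 3 stayed in, widens these differences by construction. The same fit called 21.0% of all genes against parental cells and 29.1% against CRISPR_1G2. Kcnq1ot1 itself had at most 6 counts in a library. Cdkn1c, the cell cycle inhibitor p57, had 2 counts in parental 3 and 0 in the other 8 libraries, and Ascl2, a basic helix-loop-helix factor, had at most 7.

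Igf2r, the receptor that binds IGF2 and carries it to lysosomes, is expressed from the mother's copy, and the antisense RNA Airn silences it on the father's copy. Igf2r was at 300.8, 287.8 and 308.6 CPM in parental, 264, 261 and 249 CPM in KO_1E7 and 231, 254 and 337 CPM in CRISPR_1G2 libraries. KO_1E7 libraries were all below the parental ones, by a small step that was not called (edgeR log2 fold change -0.21 ± 0.15 SE, adjusted p = 0.427). Airn was at 7.71, 8.42 and 4.87 CPM in parental, 4.61, 5.48 and 5.13 CPM in KO_1E7 and 4.98, 6.18 and 3.27 CPM in CRISPR_1G2 libraries, so the groups overlapped. Its log2 fold changes were -0.46 ± 0.29 in KO_1E7 against parental (edgeR, adjusted p = 0.378), -0.54 ± 0.30 in CRISPR_1G2 against parental (0.742) and 0.08 ± 0.29 in KO_1E7 against CRISPR_1G2 (0.892). Without parental 3 and CRISPR_1G2 3, Airn was called lower in KO_1E7 against parental (-0.66, adjusted p = 0.0335), and without KO_1E7 2 as well (-0.72, adjusted p = 0.0205). For Airn, parental 3 was the lowest and KO_1E7 2 the highest of its group, so these omissions widen the difference by construction. The 2 fits called 21.0% and 28.3% of all genes in this contrast. Per kilobase of exon, reads counted as Airn stood at 2.56% to 7.71% of those of Igf2r. The spans of Airn and Igf2r overlap on opposite strands, with 0 shared exonic bases. Without strand, unspliced Igf2r reads there cannot be told apart from Airn. The ratio of Igf2 to Igf2r per kilobase was 0.926 to 2.11 in parental and CRISPR_1G2 libraries and 0.0346, 0.510 and 0.0186 in KO_1E7 1, 2 and 3.

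Among the single imprinted genes, Zrsr1, a retrotransposed splicing factor gene expressed from the father's copy, came closest to a call. It was at 9.89, 10.1 and 14.9 CPM in parental, 5.31, 8.03 and 5.88 CPM in KO_1E7 and 9.55, 11.2 and 23.05 CPM in CRISPR_1G2 libraries. All KO_1E7 values lay below all others, with a log2 fold change of -1.19 ± 0.36 against CRISPR_1G2 (edgeR, adjusted p = 0.0621; DESeq2, adjusted p = 0.0154) and -0.86 ± 0.36 against parental (edgeR, adjusted p = 0.188). Zrsr1 lies inside Commd1 on the opposite strand, and 203 of its exonic bases (6.19%) are shared with that gene.

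Nnat, a membrane proteolipid gene, was at 3.33, 3.59 and 7.62 CPM in parental, 2.69, 2.96 and 2.30 CPM in KO_1E7 and 2.80, 3.94 and 7.14 CPM in CRISPR_1G2 libraries. Its KO_1E7 range lay below the parental range (edgeR log2 fold change -0.87 ± 0.43, adjusted p = 0.257) and overlapped that of CRISPR_1G2. Impact, a translation regulator gene, was at 13.5, 13.1 and 17.7 CPM in parental, 10.1, 5.70 and 11.4 CPM in KO_1E7 and 6.61, 5.26 and 11.3 CPM in CRISPR_1G2 libraries. Both clones lay below parental cells, without a call (edgeR log2 fold change -0.71 ± 0.34, adjusted p = 0.255, and -0.93 ± 0.35, adjusted p = 0.566). Parental 3 and CRISPR_1G2 3 were the highest of their groups for Nnat, Zrsr1 and Impact. In the parental group the third library was 2.20 times the mean of the others for Nnat, 1.49 times for Zrsr1 and 1.34 times for Impact. The same ratios in CRISPR_1G2 were 2.12, 2.22 and 1.91.

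Gnas, which encodes the stimulatory G protein alpha subunit that couples receptors such as VPAC2 to adenylyl cyclase, was at 397, 417 and 314 CPM in parental, 371, 341 and 313 CPM in KO_1E7 and 426, 402 and 314 CPM in CRISPR_1G2 libraries. These ranges overlapped in each contrast, and the log2 fold change of KO_1E7 against parental was -0.14 ± 0.16 (edgeR, adjusted p = 0.655). Mest was at 0.710 to 1.37 CPM and Peg3 at 0.0283 to 0.612 CPM over the 9 libraries, with overlapping groups and no call in any contrast. Mest shares 912 exonic bases (23.1%) with its antisense neighbour Copg2, so its reads may in part be those of Copg2.

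**Figure D3:**
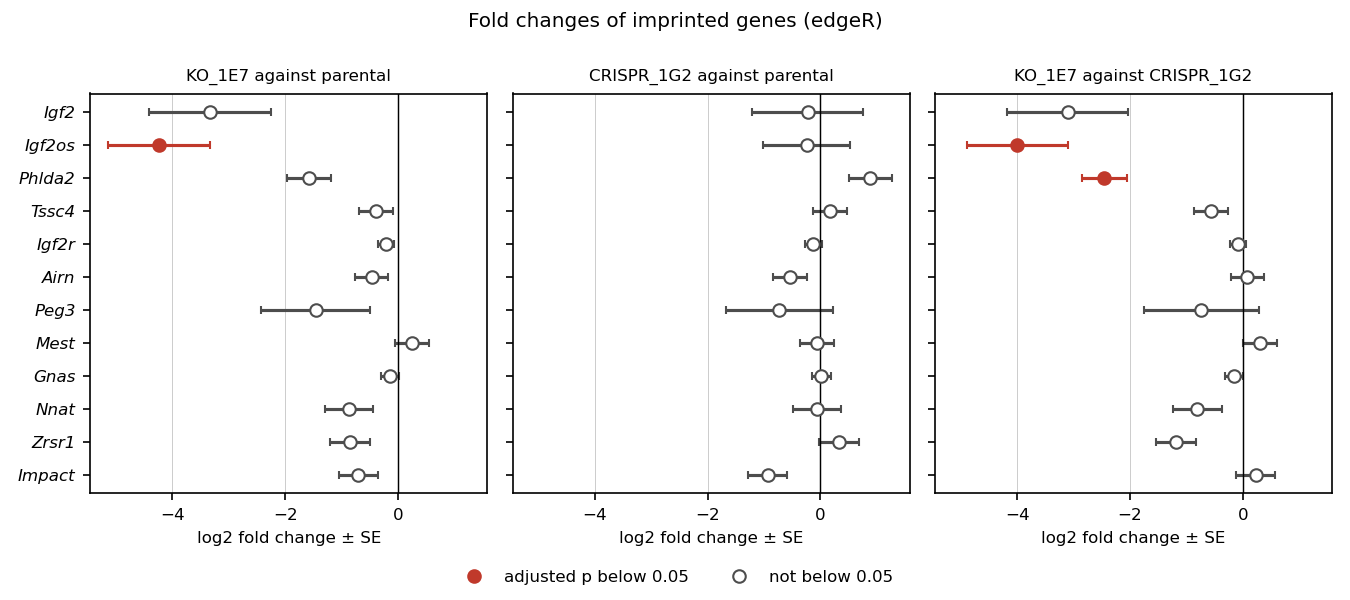
Log2 fold change (x axis) with its standard error for the 12 tested imprinted genes in the 3 contrasts, filled red where the adjusted p is below 0.05. Igf2os is called against parental cells, Igf2os and Phlda2 are called against CRISPR_1G2, and no member is called between CRISPR_1G2 and parental cells.

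Counted over the 12 tested members, edgeR called 0 higher and 1 lower in KO_1E7 against parental cells, where it called 2.54% of all tested genes higher and 2.87% lower. DESeq2 called Igf2os and Phlda2 lower there, besides Slc38a4 outside the 12, but it left Igf2 without an adjusted p. Of all genes with a defined DESeq2 adjusted p, 5.97% were called lower. In KO_1E7 against CRISPR_1G2, edgeR called 0 higher and 2 lower, against 5.71% and 7.03% of all genes. DESeq2, again without an adjusted p for Igf2, called 3 lower (Igf2os, Phlda2 and Zrsr1), against 8.79% of genes with a defined adjusted p. Between CRISPR_1G2 and parental cells both tools called 0 members in either direction, while edgeR called 0% of all genes higher and 0.254% lower. At an unadjusted p below 0.05, edgeR found 4, 2 and 4 members in these contrasts in the order KO_1E7 against parental, CRISPR_1G2 against parental and KO_1E7 against CRISPR_1G2. The shares of all tested genes at that unadjusted p were 23.7%, 7.73% and 29.0% in the same order.

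The ranges of the 3 libraries did not overlap for 7 members in KO_1E7 against parental, all lower in KO_1E7, where 34.4% of all tested genes did not overlap. The 7 were Igf2, Igf2os, Phlda2, Igf2r, Impact, Nnat and Zrsr1. In KO_1E7 against CRISPR_1G2 there were 4 such members, a share near the 38.6% of all genes, and in CRISPR_1G2 against parental 2, near the 13.1% of all genes. The median log2 fold change over the tested members was -0.78 in KO_1E7 against parental, where it was -0.03 over all genes, and -0.65 in KO_1E7 against CRISPR_1G2, where it was -0.03 over all genes.

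Chromosome 7, which carries 15 of the 34 members and every one called by edgeR, was lower as a whole in KO_1E7. The median log2 fold change of its 1240 tested genes was -0.45 against parental cells and -0.53 against CRISPR_1G2, and 0.06 in CRISPR_1G2 against parental cells. Of these genes, 10.7% were called lower in KO_1E7 against parental and 22.1% against CRISPR_1G2. Set against the chromosome's own median, the log2 fold change of KO_1E7 against parental was -3.79 for Igf2os, -2.88 for Igf2 and -1.13 for Phlda2, and 0.06 for Tssc4. Ranked from the lowest among the 1240, Igf2os was at place 12, Igf2 at 25 and Phlda2 at 87. The part of the chromosome-wide shift in these values was not tested.

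Genes near Igf2 were called in both directions. Of 13 tested genes within 500 kb of the Igf2-H19 domain, 4 rose and 1 fell in KO_1E7 against parental cells, 4 rose and 1 fell against CRISPR_1G2, and 0 were called between CRISPR_1G2 and parental cells. Over all genes, edgeR called 2.54% higher and 2.87% lower in KO_1E7 against parental cells, and 5.71% and 7.03% against CRISPR_1G2. Between CRISPR_1G2 and parental cells these shares were 0% and 0.254%. Syt8, a synaptotagmin gene, was at 11.6, 9.50 and 10.4 CPM in parental, 48.0, 31.9 and 43.6 CPM in KO_1E7 and 3.34, 5.83 and 3.11 CPM in CRISPR_1G2 libraries. It was higher in KO_1E7 by 1.97 ± 0.27 on the log2 scale against parental (edgeR, adjusted p = 0.0119) and by 3.33 ± 0.29 against CRISPR_1G2 (adjusted p = 0.000742). Tnni2, a troponin gene beside it, was higher by 1.82 ± 0.26 (adjusted p = 0.0128) and 2.58 ± 0.27 (adjusted p = 0.00189), and Lsp1, a leukocyte-associated actin-binding protein gene, by 0.84 ± 0.18 (adjusted p = 0.0381) and 1.44 ± 0.19 (adjusted p = 0.00382).

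The calls of Syt8, Tnni2 and Lsp1 against CRISPR_1G2 held in all 18 alternative analyses. Against parental cells, Syt8 was not called without KO_1E7 1 (adjusted p = 0.0628) or KO_1E7 3 (0.0760), nor was Tnni2 (0.0647 and 0.0760). Lsp1 was lost when any library but CRISPR_1G2 3 was left out, with adjusted p from 0.0565 to 0.165. Mrpl23, the tested gene nearest to Igf2 on the H19 side, was at 20.4 to 23.2 CPM in parental and 15.3 to 19.1 CPM in KO_1E7 libraries and was not called. In the plot by distance, the genes that rose lay 206 to 278.8 kb beyond the Igf2 start against parental cells and 160 to 232 kb beyond it against CRISPR_1G2. Among neighbours within 500 kb, the called genes that fell, Tspan32os against parental and R74862 against CRISPR_1G2, lay on the other side, at -341.2 and -386.9 kb. Farther out, called genes also fell on the side of those that rose. Examples are Polr2l at 1192 kb against parental cells (edgeR log2 fold change -0.84, adjusted p = 0.0233) and Tollip at 748.3 kb against CRISPR_1G2 (-1.09, adjusted p = 0.00614). Tspan32os was not called without parental 1 (adjusted p = 0.0687), KO_1E7 1 (0.0906), KO_1E7 2 (0.0562) or KO_1E7 3 (0.0873), and R74862 not without KO_1E7 1 (0.0750) or KO_1E7 3 (0.0506).

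**Figure D4:**
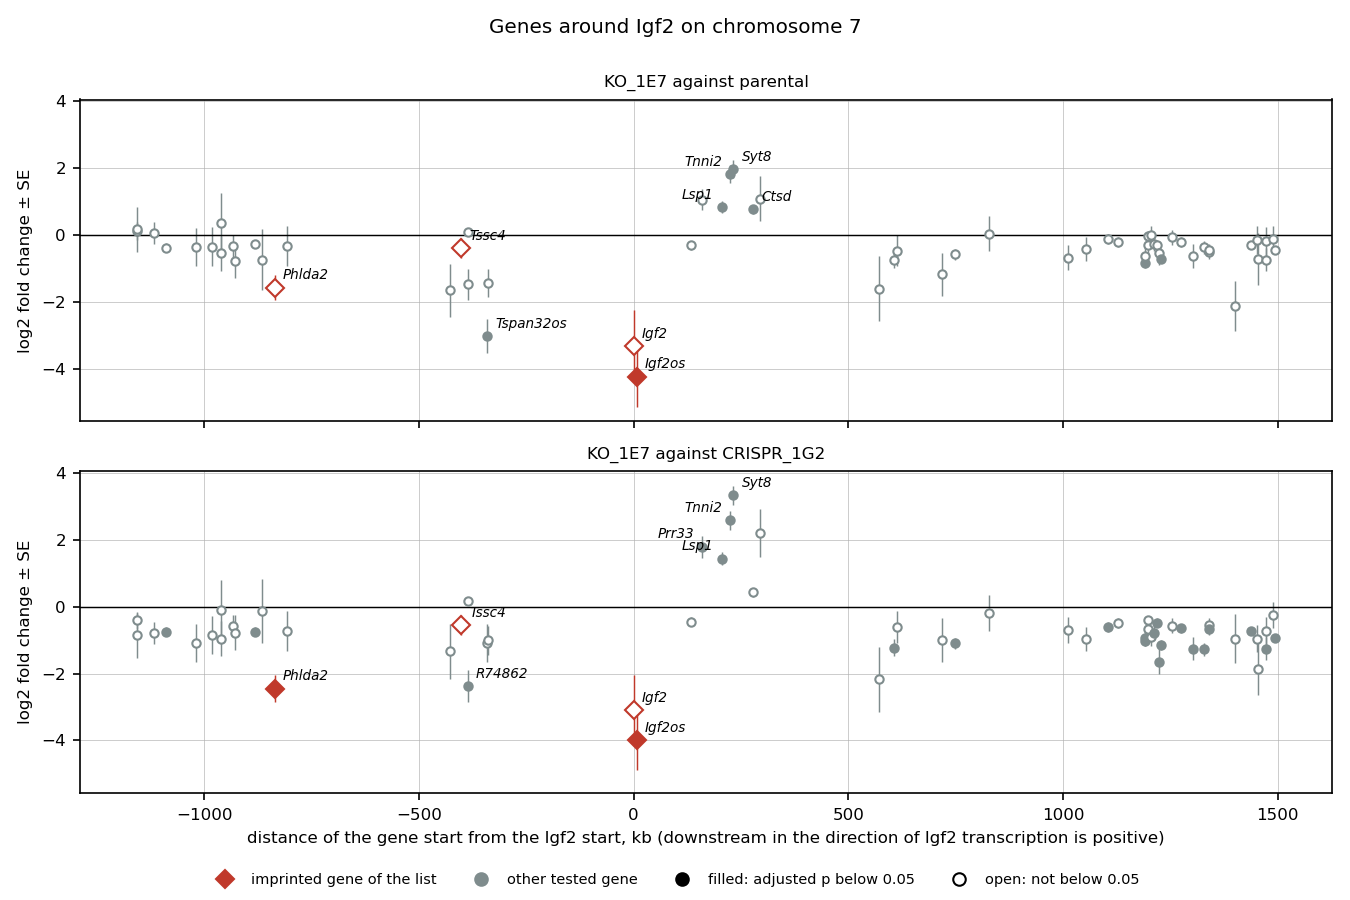
Log2 fold change with standard error of tested genes around Igf2 on chromosome 7 against the distance of their start from that of Igf2 in kb, for KO_1E7 against parental (top) and against CRISPR_1G2 (bottom), with the listed imprinted genes as red diamonds and called genes filled. Igf2 and Igf2os are the lowest points in both panels, and Syt8 and Tnni2, 232 and 225 kb away, are the highest.

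Factors that set or protect imprints were followed next. In a list of 28 such genes, written with earlier results of these data known, 24 were tested. Of these, 0 were higher and 2 lower in KO_1E7 against parental, where 2.54% and 2.87% of all genes were called. In CRISPR_1G2 against parental 0 and 0 were called, and in KO_1E7 against CRISPR_1G2 0 and 3, where 5.71% and 7.03% of all genes were called. Uhrf2, a relative of the hemimethylated DNA reader Uhrf1, was at 37.5, 33.0 and 43.2 CPM in parental, 0.820, 7.45 and 0.836 CPM in KO_1E7 and 24.7, 27.6 and 49.3 CPM in CRISPR_1G2 libraries. As for Igf2, every KO_1E7 library was below all others and KO_1E7 2 was the highest of its clone. The log2 fold change of Uhrf2 was -3.61 ± 0.81 against parental (edgeR, adjusted p = 0.0398) and -3.45 ± 0.81 against CRISPR_1G2 (adjusted p = 0.0271). The call against parental was lost when any library but KO_1E7 2 or CRISPR_1G2 3 was left out, with adjusted p from 0.0667 to 0.146. The call against CRISPR_1G2 was lost without parental 1 (0.0512), KO_1E7 1 (0.0833), KO_1E7 3 (0.0911), CRISPR_1G2 1 (0.0524) or CRISPR_1G2 2 (0.0561).

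Tdg, a DNA glycosylase gene of active demethylation, was lower in KO_1E7 than in CRISPR_1G2 by a log2 fold change of -0.89 ± 0.13 (edgeR, adjusted p = 0.00489), a call that held in all 18 alternatives. Against parental cells it was at -0.61 ± 0.13 (adjusted p = 0.0327), lost when any library but CRISPR_1G2 3 was left out, with adjusted p from 0.0543 to 0.132. The methyltransferase gene Dnmt3a was called lower in KO_1E7 against CRISPR_1G2 alone (edgeR log2 fold change -0.87 ± 0.23, adjusted p = 0.0404). Its call was lost when any library but parental 3 or KO_1E7 2 was left out, with adjusted p from 0.0588 to 0.165. Against parental cells Dnmt3a was at -0.34 ± 0.23 (adjusted p = 0.411). Dnmt1, the maintenance methyltransferase gene, was at 292.7 ± 74.7 CPM (SD, n = 3) in parental, 389 ± 12.1 in KO_1E7 and 260 ± 61.9 in CRISPR_1G2 libraries and was not called against parental (log2 fold change 0.41 ± 0.23, edgeR, adjusted p = 0.321). Zfp57, named for its part in imprint protection, was at 9.85 ± 1.78, 12.9 ± 2.24 and 11.3 ± 1.93 CPM in the same order and was not called (0.39 ± 0.22, adjusted p = 0.317).

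The insulin-like growth factor axis, in which IGF1 and IGF2 signal through the receptor IGF1R and are held by binding proteins, was followed with a list of 17 genes besides Igf2 and Igf2r, of which 15 were tested. In KO_1E7 against parental cells 2 rose and 1 fell, in CRISPR_1G2 against parental 0 rose and 0 fell, and in KO_1E7 against CRISPR_1G2 4 rose and 1 fell, with the same shares of all genes as background. Binding protein genes went both ways. Igfbp4 fell against parental cells (edgeR log2 fold change -2.61, adjusted p = 0.0440). Against CRISPR_1G2, Igfbp5 (3.47, adjusted p = 0.0355) and Igfbp6 (2.05, adjusted p = 0.0146) rose and Igfbp2 (-3.57, adjusted p = 0.0378) fell. Each of these calls was lost in some single omissions. Igf1, the other ligand, was at 0.929, 1.35 and 1.53 CPM in parental, 9.41, 5.21 and 6.39 CPM in KO_1E7 and 1.20, 1.07 and 0.519 CPM in CRISPR_1G2 libraries. Every KO_1E7 library was above all others, opposite in direction to Igf2. The log2 fold change of Igf1 was 2.91 ± 0.40 against CRISPR_1G2 (edgeR, adjusted p = 0.00453), called in all 18 alternatives. Against parental cells it was 2.46 ± 0.39 (adjusted p = 0.0165), a call lost without parental 1 (0.0636), KO_1E7 1 (0.0677) or KO_1E7 3 (0.0823).

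Of the receptors, Insr was called and Igf1r was not, and the difference between them was not tested. Insr, the insulin receptor gene, was at 75.4, 69.7 and 75.3 CPM in parental, 100.1, 168.6 and 133.7 CPM in KO_1E7 and 74.7, 67.0 and 64.4 CPM in CRISPR_1G2 libraries. It was called higher in KO_1E7 against CRISPR_1G2 (edgeR log2 fold change 0.97 ± 0.18, adjusted p = 0.0133), except without KO_1E7 3 (0.0578) or CRISPR_1G2 2 (0.0502). Against parental cells its log2 fold change was 0.87 ± 0.18 (adjusted p = 0.0339), and the call was lost when any library but KO_1E7 1 or CRISPR_1G2 3 was left out, with adjusted p from 0.0583 to 0.134. Igf1r was at 133 ± 14.8 CPM (SD, n = 3) in parental, 109 ± 12.95 in KO_1E7 and 133 ± 15.1 in CRISPR_1G2 libraries and was not called (log2 fold change -0.29 ± 0.15 against parental, edgeR, adjusted p = 0.272).

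Imprinted genes outside the 34 were called in both directions. Of 49 on a further list, 26 were tested: 3 were higher and 1 lower in KO_1E7 against parental, 0 and 0 in CRISPR_1G2 against parental, and 5 higher and 4 lower in KO_1E7 against CRISPR_1G2. Over all genes, 2.54% were higher and 2.87% lower against parental, and 5.71% and 7.03% against CRISPR_1G2. Copg2, a coatomer subunit gene that overlaps Mest, was at 50.1, 44.2 and 41.8 CPM in parental, 66.5, 71.2 and 66.0 CPM in KO_1E7 and 37.2, 39.9 and 36.3 CPM in CRISPR_1G2 libraries. All KO_1E7 libraries were above all others, with a log2 fold change of 0.85 ± 0.12 against CRISPR_1G2 (edgeR, adjusted p = 0.00456), called in all 18 alternatives. Against parental cells it was 0.58 ± 0.12 (adjusted p = 0.0297), lost when any library but CRISPR_1G2 3 was left out, with adjusted p from 0.0608 to 0.128. Nap1l4, a nucleosome assembly gene of the Kcnq1ot1 domain, was lower in KO_1E7 than in CRISPR_1G2 by -0.75 ± 0.13 (adjusted p = 0.00992), except without KO_1E7 1 (0.0550) or KO_1E7 3 (0.0663).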

How the data were processed

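Libraries came from oligo-dT selected RNA and an unstranded kit (labels' protocols). The submitters' processing notes name bcl2fastq 2.17, STAR 2.5.2b, Subread 1.5.2 with featureCounts and the build GRCm38. For annotation release and strand setting, the entry is "not given in the sources used here". Raw counts per gene are what the authors deposited. Per the file headers, the first and second libraries of each group carry dates that groups share only in part, and the other libraries carry the word NSG. The series table and the per-sample tables differed in 0 cells, and 92 spike-in controls (0.344% to 0.820% of counts) were left out. Gene coordinates and exonic lengths are those of the deposited tables.

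Counts were tested in R 4.3.3 with edgeR 4.0.16 (robust quasi-likelihood F-test, TMM scaling, expression filter by group, all 9 libraries in 1 fit, 3 contrasts, Benjamini-Hochberg adjustment), checked on simulated counts. DESeq2 1.42.0 was an alternative, and the others are given in the closing section. Libraries of a group differed by a chi-square of 8.84 to 765 per gene, so all 9 were counted separately. Intervals of pooled ratios are exact at 95%. An exact permutation test of 3 against 3 libraries cannot go below p = 0.1 and was not used. Members called in any contrast and tested noncoding RNAs are given with full statistics. From other lists and from neighbours within 500 kb, at most the 5 called genes of smallest adjusted p were eligible, and Dnmt1, Zfp57, Igf1r and Mrpl23 were added for their role or place after their values were seen. The members and lists were chosen with earlier results of these data known.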

Additional observations from a re-analysis of the deposited data

How the results depend on the processing

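Across 18 alternatives, 84 of 93 results never changed direction. In KO_1E7 against parental, where 1 member was called lower, DESeq2 gave 3, no expression filter 0, a fit of only the groups compared 0, a term for the word NSG that marks replicate 3 of each group in the deposited names 3, leaving out parental 3 and CRISPR_1G2 3 gave 3, leaving out KO_1E7 2 as well 6, leaving out replicate 3 of every group 2, and leaving out 1 library at a time 0 to 3. In KO_1E7 against CRISPR_1G2, where 2 were called lower, no filter gave 1, only the groups compared 1, the NSG term 4, parental 3 and CRISPR_1G2 3 left out 4, those with KO_1E7 2 left out 5 (and 1 higher, Impact), and single libraries left out 1 to 3. In CRISPR_1G2 against parental, 1 was higher (Phlda2) and 1 lower (Impact) without parental 3, CRISPR_1G2 3 and KO_1E7 2, and 0 in single omissions. Calls over all genes moved too: in KO_1E7 against parental from 854 to between 24 (without KO_1E7 3) and 1998 (without CRISPR_1G2 3) in single omissions, 2036 with DESeq2, 2060 with the NSG term, 3330 without parental 3 and CRISPR_1G2 3 and 4423 without KO_1E7 2 as well. Those last fits called 21.0% and 28.3% of all genes, against 5.42% with all libraries, and 29.1% and 35.6% in KO_1E7 against CRISPR_1G2, against 12.8%.

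Signs turned for differences not called in either fit, small except for Peg3 (-0.73 in both main-fit contrasts below, 1 to 22 counts per library). In CRISPR_1G2 against parental these were Peg3 (0.10, 0.11 and 0.10 in the 3 fits that leave out several libraries, in the order above), Mest (0.12 without parental 2, single omissions -0.22 to 0.12), Nnat (0.42 without parental 3, 0.20 without CRISPR_1G2 1, 0.04 without CRISPR_1G2 2, single omissions -0.52 to 0.42), Gnas (-0.10, -0.07 and -0.02 in the same order, up to 0.14), Zrsr1 (-0.16 without CRISPR_1G2 3, up to 0.56) and Tssc4 (-0.058 without parental 3, -0.02 without CRISPR_1G2 1, up to 0.43). In KO_1E7 against CRISPR_1G2 they were Peg3 (0.59 without CRISPR_1G2 1, single omissions from -1.44), Igf2r (0.10 without CRISPR_1G2 3, then 0.10, 0.087 and 0.13) and Airn (-0.12 and at most 0.30 in single omissions, then -0.13, -0.19 and -0.13). The cause was not tested.

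The shared replicate numbers matched the libraries only in part: 5 of 9 same-numbered pairs correlated above 0.1 (-0.05 to 0.65), and 6 of 9 libraries correlated best with their own number. Parental 2 and CRISPR_1G2 1, which share a header date but not a number, correlated at 0.54. A term for header date was not fitted, so whether the libraries are paired was not settled. With the replicate block, 3 members were lower in KO_1E7 against parental (Igf2 at -4.39, adjusted p = 0.0413, Igf2os, and Phlda2 at -1.71, adjusted p = 0.0283) and 4 against CRISPR_1G2 (with Igf2 at -4.14, adjusted p = 0.0298, and Zrsr1). The block moved the calls over all genes from 5.42% to 8.23% and from 12.8% to 16.6%. Depth limits the 22 untested members, whose differences were mostly not detectable.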

Other observations

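Peg10 and Sgce on chromosome 6 had at most 4 counts in a library, while genes beside them were called. The 4 tested genes within 500 kb of the pair were all called higher in KO_1E7 against CRISPR_1G2, where 5.71% of all genes were called higher. Against parental cells 2 of them were called higher, beside 2.54% of all genes. Pon3, a paraoxonase gene, was at 26.1, 24.1 and 26.8 CPM in parental, 51.0, 44.6 and 51.4 CPM in KO_1E7 and 23.2, 27.3 and 27.6 CPM in CRISPR_1G2 libraries, so every KO_1E7 library lay above all others. Its log2 fold change was 0.91 ± 0.13 against CRISPR_1G2 (edgeR, adjusted p = 0.00496) and 0.93 ± 0.13 against parental (adjusted p = 0.0121), the latter lost without KO_1E7 1 (0.0632) or KO_1E7 3 (0.0760). Ppp1r9a, a neuronal actin-binding protein gene, rose against CRISPR_1G2 by 3.31 ± 0.56 on the log2 scale (edgeR, adjusted p = 0.00913), from 0.0726 to 0.458 CPM there to 2.07 to 2.52 CPM in KO_1E7. Another neighbour, Col1a2, rose by 3.67 ± 1.02 against CRISPR_1G2 (adjusted p = 0.0482), a call lost without parental 2 (0.0678), KO_1E7 1 (0.168), KO_1E7 3 (0.0964), CRISPR_1G2 1 (0.103), CRISPR_1G2 2 (0.131) or CRISPR_1G2 3 (0.0892).

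Mas1, an angiotensin-related receptor gene next to Igf2r, was rare but higher in KO_1E7, at 0.339 to 0.682 CPM against 0.0834 to 0.138 CPM in parental and 0.0305 to 0.0630 CPM in CRISPR_1G2 libraries. The spans of Mas1 and Airn overlap, and without strand their reads there cannot be told apart. The log2 fold change of Mas1 against CRISPR_1G2 was 3.43 ± 0.53 (edgeR, adjusted p = 0.00630). Against parental cells it was 2.16 ± 0.45 (edgeR, adjusted p = 0.0337). That call was lost when any library but CRISPR_1G2 3 was left out, with adjusted p from 0.0641 to 0.140.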
